A study of Arabidopsis thaliana with 9 samples.

Results

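A set of 103 Arabidopsis thaliana genes had lower transcript levels in seedlings grown with the small molecule hyperphyllin, while the amp1-13 mutant stayed near the wild-type control. The genes were chosen by their group means of log2 signal: hyperphyllin minus wild-type control at most -0.8, amp1-13 minus wild-type control between -0.4 and 0.4, and every hyperphyllin array below every control array. They came from the 13367 probe sets that name a single nuclear gene, of which they are 0.771%. A log2 difference of -1 is a halving of the signal on this scale. Because these values chose the members, their differences from control are given below as a description and no test of a member is given. APL3 and PDF1.2 were set aside by name, although neither met the other conditions.

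RNA from whole Col-0 seedlings, 10 days old, was hybridised to 9 Affymetrix ATH1 arrays, which hold short oligonucleotide probe sets for Arabidopsis genes. The hyperphyllin group was wild type with 30 µM hyperphyllin, the amp1-13 group was the mutant with solvent only, and the control group was wild type with solvent only, with 3 biological replicates each. All groups grew in liquid half-strength Murashige and Skoog medium with 1% sucrose and 1% (v/v) DMSO in 96-well plates kept at 26 °C under a daily cycle of 16 h light and 8 h dark, so no group was free of DMSO. Every sample also had 2 days in the dark at 4 °C, with 5 seeds per well. The labels name the amp1-13 allele without saying how it alters the gene, and AMP1 itself was not analysed here.

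AMP1 encodes a putative glutamate carboxypeptidase, and seedlings that lack it form leaves faster than the wild type and have an enlarged shoot meristem. Hyperphyllin is a compound that gives wild-type seedlings an amp1-like excess of leaves. The comparison therefore asks which transcripts a compound lowers when the mutant it resembles does not lower them to the same extent.

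The array medians lay between 6.44 and 6.52. Replicate 2 of the control stood apart from the other control arrays, with correlations over probe sets of 0.983 with replicate 1 and 0.987 with replicate 3, against 0.995 between replicates 1 and 3. The actin 3′ probe set exceeded its 5′ probe set, a measure of RNA integrity, by 1.99, 2.07 and 1.93 in hyperphyllin, 1.97, 1.81 and 1.91 in amp1-13, and 2.75, 1.82 and 2.39 in control (log2, replicates 1 to 3). Control replicates 1 and 3 were the highest of the 9 arrays in this pair. In a second actin pair the values were 3.56, 3.45 and 3.41 in hyperphyllin, 3.43, 3.36 and 3.44 in amp1-13, and 3.81, 3.59 and 3.44 in control, so control replicate 3 did not stand apart there. The GAPDH pair averaged 1.33 in hyperphyllin, 1.42 in amp1-13 and 1.32 in control. Its control arrays were 1.57, 1.01 and 1.38, so replicate 1 was the highest and replicate 2 the lowest of the 9 arrays. In a second GAPDH pair the control values were 0.39, 0.12 and 0.31, and control replicates 1 and 3 were again the highest. The ubiquitin pairs repeated this only in part. Control was 1.53, 1.44 and 1.58 in the first, where amp1-13 replicate 2 was higher (1.62). It was 0.39, 0.19 and 0.08 in the second, where only replicate 1 stood out. The part of RNA integrity in the members' differences was not tested. Of the measured leaf markers, RCA, LHCB4.1, PRK and SBPASE (4 of 6 listed), all rose in both hyperphyllin and amp1-13 (limma, adjusted p at most 0.00256 with hyperphyllin and 0.00493 in amp1-13). Their mean log2 signal was 12.04 to 12.26 on the hyperphyllin arrays, 12.26 to 12.39 on the amp1-13 arrays and 11.07 to 11.43 on the control arrays. Of the root markers 2 of 15 were measured, PYK10 and EXPA7, and their mean was 10.25 to 10.67 in hyperphyllin, 10.40 to 10.81 in amp1-13 and 10.18 to 10.24 in control. In whole seedlings, fewer cells of a type and less RNA per cell cannot be told apart.

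Among the nuclear probe sets, 622 were at most -0.8 with hyperphyllin and did not overlap the control arrays. In 505 of these, amp1-13 was also below the control by more than 0.4, in 14 it was above by more than 0.4, and in 103 (16.6%) it lay within the window. Over the members, hyperphyllin minus control ran from -2.44 to -0.81 with a median of -1.0, while the median over all tested probe sets was -0.03. That is 1.75-fold to 5.41-fold lower, with a median of 2.00-fold. Only 3 members lay at or below -2, 14 at or below -1.5 and 52 at or below -1, so 51 members sat between -1 and -0.8. Amp1-13 minus control had a median of -0.24 over the members. It was below 0 in 77 members and above 0 in 26. Of the 10146 nuclear probe sets within the same window, 58.7% were below 0, and of all probe sets tested 54.6% were.

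**Figure D1:**
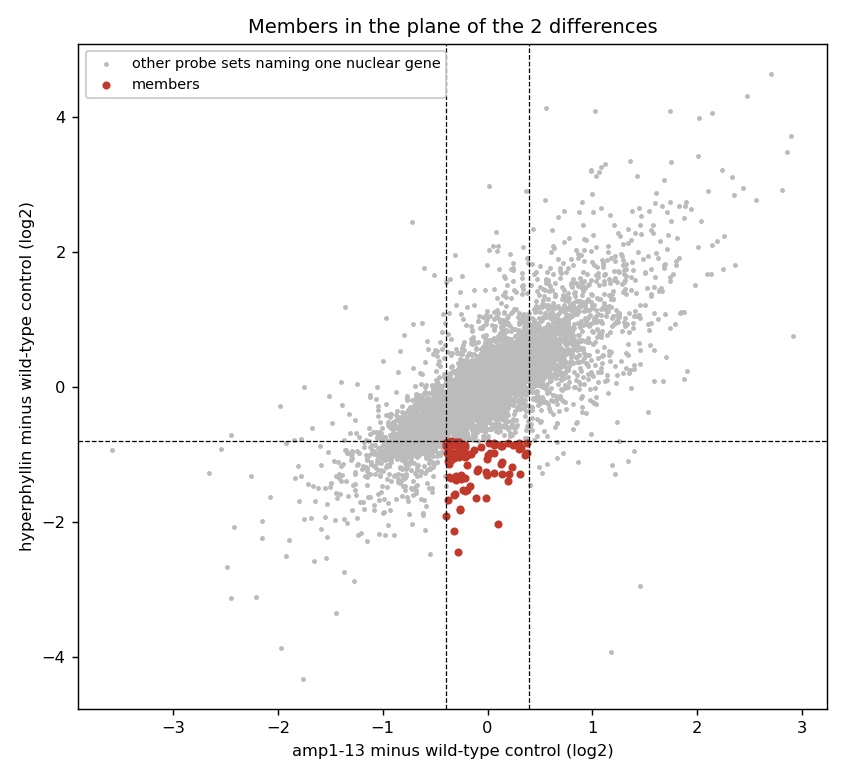
Each point is a probe set naming a single nuclear gene, placed by its amp1-13 minus wild-type control difference (x axis, log2) and its hyperphyllin minus wild-type control difference (y axis, log2), and dashed lines mark the limits of -0.8 and ±0.4. The 103 members (red) fill the lower middle field down to -2.44, and the denser part of the field is left of 0, where 77 of them lie.

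The thresholds cut through a continuous spread. Just inside the hyperphyllin limit lay AT4G18975, AT2G03550 and AT5G48940, each at -0.81, and just outside it AT5G61590 at -0.80, AT5G52880 at -0.79 and sks16 at -0.79. At the lower amp1-13 limit, AAH (-0.40), AT5G66815 (-0.40) and AT5G01870 (-0.39) were just inside, and AT4G35750 (-0.40), AT5G58570 (-0.41) and CYP718 (-0.41) just outside. At the upper limit, AT3G47480 (0.38), AT3G55890 (0.37) and AAE16 (0.36) were inside, and AT2G29370 (0.40), AT1G19200 (0.41) and ATSPS4F (0.49) outside. A single further gene, AT5G03370, met both mean limits but not the separation of arrays. Its log2 signals were 6.52, 6.16 and 6.27 with hyperphyllin and 7.56, 6.46 and 7.36 in control, so replicate 2 of the control fell among the hyperphyllin values.

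The limma fit across 22746 probe sets called 101 of the 103 members lower with hyperphyllin than control, where 15.6% of all probe sets were called lower (28.9% in either direction), and 22.8% of all had every hyperphyllin array below every control array. It called 2 members lower in amp1-13 than control, where 12.5% of all were called lower, and 0 higher, where 10.1% were. The rule used both contrasts, so nothing is read from these counts. In hyperphyllin against amp1-13, which the same limits shape, 73 members were called lower and 0 higher, where 3.35% and 2.98% of all were (6.33% in either direction). Every hyperphyllin array was below every amp1-13 array in 99 members, where 12.6% of all probe sets had that order. The 4 exceptions were AAH, AT3G15650, AT3G19550 and AT1G33780, in which hyperphyllin minus amp1-13 was -0.44 to -0.48. The limits themselves place the hyperphyllin mean below the amp1-13 mean in every member. Nothing is therefore read from the counts of hyperphyllin against amp1-13 either. Every amp1-13 array was below every control array in 16 members and above every control array in 2, where 20.4% and 14.9% of all probe sets were.

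Taken against each gene's control mean, the median member stood at -1.20, -1.03 and -0.88 on hyperphyllin replicates 1, 2 and 3. On the amp1-13 arrays it stood at -0.33, -0.09 and -0.17, and on the control arrays at 0.06, -0.12 and 0.10. The depth of the fall therefore varied among the hyperphyllin arrays: replicate 1 was the lowest of the 3 in 63 members, replicate 2 in 32 and replicate 3 in 8. Among the control arrays, replicate 2 was the lowest in 64 members. The median SD of a member was 0.23 in hyperphyllin, 0.19 in amp1-13 and 0.22 in control. Over the nuclear probe sets it was 0.10, 0.11 and 0.15 in the same groups. Those probe sets include dim ones and were not matched to the members in signal level. The gap between the highest hyperphyllin array and the lowest control array was 0.01 to 1.97, with a median of 0.57, and exceeded 0.5 in 63 members.

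**Figure D2:**
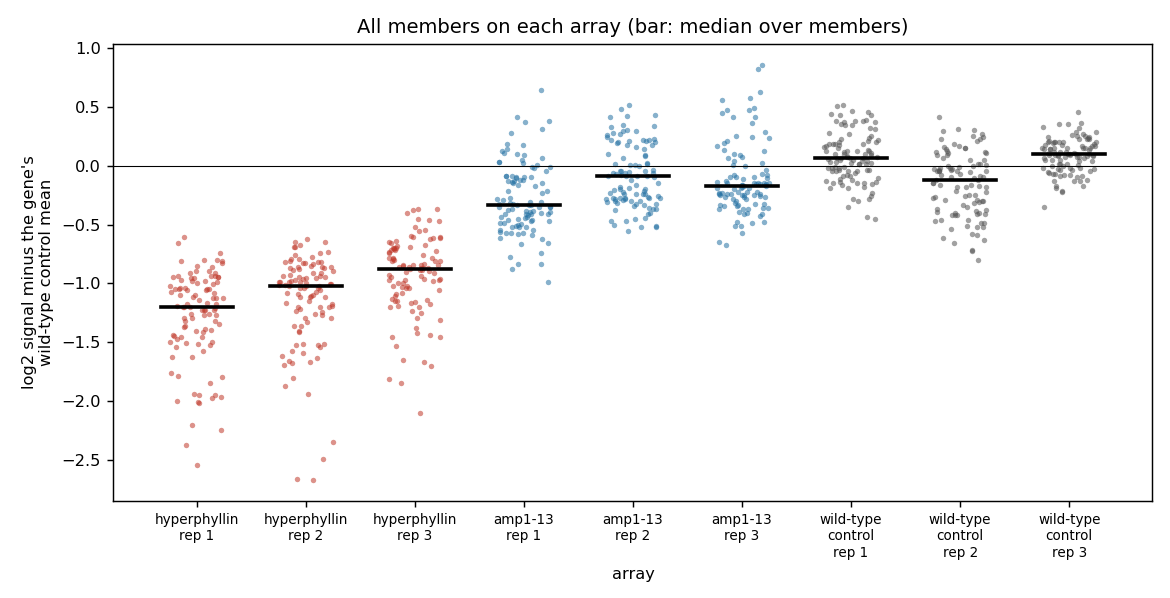
Each point is 1 of the 103 members on 1 array, as its log2 signal minus its own mean over the control arrays (y axis), with the 9 arrays along the x axis and a bar at the median. The hyperphyllin medians lie at -1.20, -1.03 and -0.88, the amp1-13 medians between -0.33 and -0.09, and the control medians between -0.12 and 0.10.

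Set against control replicate 2 alone, an alternative chosen after seeing the data, the median member was -0.96 with hyperphyllin, and 62 of 103 members were at most -0.8. The same comparison put the median of amp1-13 at 0.01, with 51 members below and the others above. With that array as the only control, the limits gave 100 members, of which 50 were among the 103. About as many genes thus met the limits, but they were only in part the same genes. Any single array used as the control could move genes near the limits in or out. The change is therefore not read as particular to replicate 2.

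The reference gives a symbol for 20 of the 103 members and only a locus for the other 83. The plot of symbol-bearing members shows the hyperphyllin arrays to the left of the control arrays in each, as the rule requires, with amp1-13 mostly next to the control. The accounts below follow the roles of these genes. Relatives, most of which share a symbol stem with the member, were chosen after values were seen. They are given as values, with no test.

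**Figure D3:**
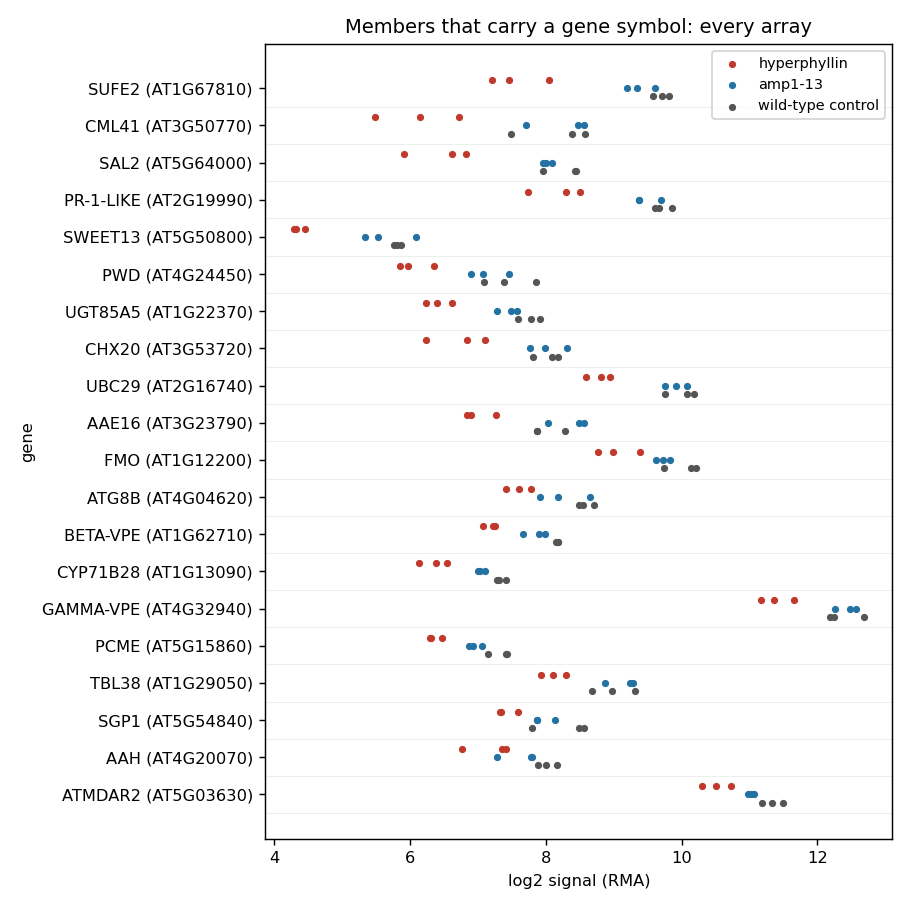
Log2 signal (x axis) of the 20 members with a gene symbol (y axis, locus in brackets) on each of the 9 arrays, with 1 point per array and the genes ordered by their fall. Hyperphyllin points (red, upper) lie at lower signal than the control points (grey, lower) in every gene, by most in SUFE2 and CML41, and amp1-13 points (blue) overlap hyperphyllin in AAH.

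Sugar transport was represented by SWEET13, and a gene of the glucan water dikinase family was also a member. SWEET13 (AT5G50800) encodes a plasma membrane transporter that lets sucrose out of cells. Its log2 signals were 4.32, 4.46 and 4.29 with hyperphyllin, 5.53, 6.08 and 5.33 in amp1-13, and 5.87, 5.77 and 5.82 in control. The hyperphyllin arrays lay more than a log2 unit under the control arrays, and amp1-13 spanned the control values. The difference was -1.46 with hyperphyllin, 2.76-fold lower, and -0.17 in amp1-13. The hyperphyllin mean was under 4.39, the 25th percentile of mean signal over probe sets, where an array resolves differences poorly. SWEET3, SWEET6, SWEET7, SWEET8 and SWEET9 had means under that percentile in every group. Of the 16 SWEET genes measured, 4 were at most -0.8 with hyperphyllin, and SWEET13 was the only member among them. Its neighbour on the chromosome, SWEET10 (adjacent in the TAIR10.1 gene table), had signals of 5.50, 5.10 and 5.55 with hyperphyllin, 6.63, 7.72 and 7.73 in amp1-13, and 6.74, 6.29 and 6.46 in control. SWEET10 was thus below control with hyperphyllin (-1.11) and above it in amp1-13 (0.86). SWEET4 was low in both (-1.29 with hyperphyllin and -1.07 in amp1-13), as was SWEET14 (-1.09 and -0.54 in the same order). The hyperphyllin mean of SWEET4, 4.30, was also under 4.39, and its control arrays were spread (6.14, 4.99 and 5.64). SWEET16, a vacuolar sugar transporter, was high in both, at 1.71 with hyperphyllin and 0.70 in amp1-13.

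The gene AT4G24450 carries the symbol PWD and the synonym ATGWD2 in the reference. The glucan water dikinase family is known for enzymes that phosphorylate the glucans of starch. Whether the product of AT4G24450 acts on starch was not tested. PWD at AT4G24450 gave 5.97, 5.85 and 6.35 with hyperphyllin, 6.90, 7.45 and 7.07 in amp1-13, and 7.38, 7.86 and 7.09 in control. Amp1-13 overlapped the control and hyperphyllin did not, with differences of -1.38 for hyperphyllin (2.61-fold lower) and -0.30 for amp1-13. The other gene that carries the symbol PWD, AT5G26570, gave 8.73, 9.17 and 9.60 with hyperphyllin and 8.99, 9.60 and 8.90 in control, a difference of 0.00.

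Several members belong to the breakdown and recycling of cell contents. Vacuolar processing enzymes are cysteine proteases that cut and activate proteins in the vacuole. GAMMA-VPE, the main form of vegetative tissue, was the brightest symbol-bearing member, with 11.16, 11.37 and 11.66 with hyperphyllin, 12.26, 12.57 and 12.47 in amp1-13, and 12.18, 12.69 and 12.25 in control. Its amp1-13 and control arrays were intermixed, and the differences were -0.98 with hyperphyllin (1.97-fold lower) and 0.07 in amp1-13. BETA-VPE, known for processing seed storage proteins, had 7.07, 7.26 and 7.23 with hyperphyllin, 7.67, 7.99 and 7.90 in amp1-13, and 8.18, 8.15 and 8.17 in control. Here the 3 groups formed 3 separate bands, with hyperphyllin at -0.98 and amp1-13 at -0.31. ALPHA-VPE was below control in both, at -0.74 with hyperphyllin and -0.66 in amp1-13, and DELTA-VPE was at -0.33 and 0.12 in the same order.

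ATG8B is one of the ubiquitin-like ATG8 proteins, which are joined to lipid on the growing autophagosome membrane. The gene gave 7.78, 7.41 and 7.61 with hyperphyllin, 7.92, 8.18 and 8.65 in amp1-13, and 8.71, 8.49 and 8.55 in control. Only 1 amp1-13 array, replicate 3, reached the control range, and the differences were -0.98 with hyperphyllin and -0.33 in amp1-13. All 9 ATG8 genes measured were below the control mean with hyperphyllin (median -0.82), and in 8 of them every hyperphyllin array was below every control array, where 22.8% of all probe sets had that order. In amp1-13 the same 9 genes had a median of -0.62, with 8 below the control mean, where 54.6% of all probe sets were. ATG8G (-1.12 with hyperphyllin, -1.02 in amp1-13) and ATG8D (-1.05 and -0.78) fell outside the members through their amp1-13 values, and ATG8E was at -0.58 with hyperphyllin and 0.13 in amp1-13. The control arrays differed among themselves in this family: ATG8E read 9.59, 8.78 and 9.34 in control, with replicate 2 the lowest, against 8.76, 8.78 and 8.43 with hyperphyllin.

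AAH encodes allantoate amidohydrolase, which releases nitrogen from the ureide allantoate in purine breakdown. Signals were 7.36, 6.77 and 7.41 with hyperphyllin, 7.28, 7.78 and 7.79 in amp1-13, and 7.88, 8.00 and 8.16 in control. The lowest amp1-13 array lay among the hyperphyllin arrays, and the differences were -0.84 with hyperphyllin and -0.40 in amp1-13. ALN, whose enzyme makes allantoate in the preceding step, was lower in both, with 7.58, 7.85 and 8.30 with hyperphyllin, 8.74, 9.24 and 8.94 in amp1-13, and 9.47, 9.60 and 9.69 in control. ALN differed by -1.67 with hyperphyllin and by -0.61 in amp1-13, outside the window.

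**Figure D4:**
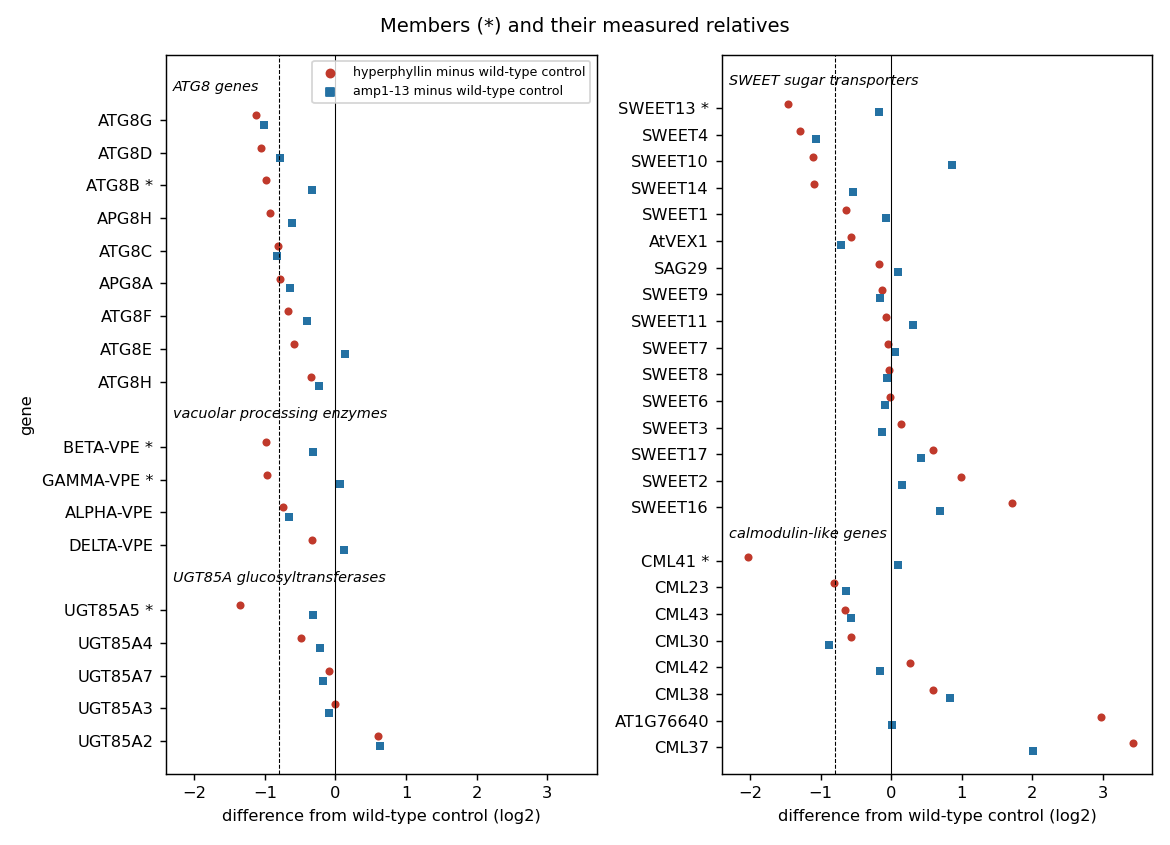
Differences from the wild-type control (x axis, log2) of members (marked with an asterisk) and their chosen relatives (y axis). Red circles are hyperphyllin, blue squares are amp1-13, and a dashed line marks -0.8. All 9 ATG8 genes lie left of 0 with hyperphyllin, SWEET10 has its circle at -1.11 and its square at 0.86, and the calmodulin-like genes run from -2.03 to 3.42 with hyperphyllin.

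Ubiquitin transfer was represented by UBC29, a ubiquitin-conjugating enzyme, which takes activated ubiquitin and passes it to a substrate with a ligase. UBC29 gave 8.59, 8.81 and 8.95 with hyperphyllin, 9.91, 10.09 and 9.75 in amp1-13, and 10.08, 9.75 and 10.18 in control. Amp1-13 sat within the control range (-0.09), and hyperphyllin was 2.33-fold lower (-1.22). AT3G13672 has the synonym SINA2, after the SINA family of ubiquitin ligases. It read 5.96, 6.04 and 5.96 with hyperphyllin, 7.28, 7.70 and 7.77 in amp1-13, and 7.65, 6.76 and 7.42 in control. The hyperphyllin arrays were tightly grouped, and the control arrays were spread by replicate 2, with differences of -1.29 with hyperphyllin and 0.31 in amp1-13.

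Signalling and ion transport genes included CML41, a calmodulin-like protein of the calcium-sensor kind. CML41 had 6.15, 5.49 and 6.72 with hyperphyllin, 7.71, 8.48 and 8.56 in amp1-13, and 8.58, 7.49 and 8.38 in control. It was the third lowest member, 4.09-fold lower with hyperphyllin (-2.03), with amp1-13 at 0.10 and a wide spread in all groups. The calmodulin-like genes taken here include AT1G76640, which the reference names by locus only, and may miss others so named. These genes did not move together: of 8 measured, 4 were below control with hyperphyllin. CML37 was far above it, with 6.92, 8.38 and 7.88 with hyperphyllin, 7.58, 5.46 and 5.93 in amp1-13, and 5.76, 3.39 and 3.78 in control. CML37 differed by 3.42 with hyperphyllin and 2.01 in amp1-13, and AT1G76640 by 2.97 and 0.01.

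SGP1 encodes a small monomeric G protein. Its signals were 7.35, 7.59 and 7.32 with hyperphyllin, 7.87, 7.87 and 8.13 in amp1-13, and 8.49, 7.79 and 8.57 in control. Hyperphyllin was at -0.86 and amp1-13 at -0.33, and control replicate 2 was nearer to amp1-13 than to the other controls. SGP2 had the larger difference in amp1-13, at -0.56 with hyperphyllin and -0.95 in amp1-13. PCME, also named ICME, encodes an isoprenylcysteine methylesterase, which removes the methyl group from prenylated proteins. PCME read 6.29, 6.31 and 6.48 with hyperphyllin, 6.92, 6.86 and 7.06 in amp1-13, and 7.16, 7.42 and 7.42 in control. All 3 groups were separate, at -0.97 with hyperphyllin and -0.38 in amp1-13.

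CHX20 is a cation/H+ exchanger described in guard cells. It gave 6.23, 7.10 and 6.84 with hyperphyllin, 8.31, 7.99 and 7.77 in amp1-13, and 8.10, 8.18 and 7.81 in control. Hyperphyllin was 2.47-fold lower (-1.31), and amp1-13 was at -0.01. The other 5 CHX genes measured lay within 0.4 of control with hyperphyllin. Of these, CHX19, CHX6B, CHX15 and CHX21 had means under 4.39 in every group, where a fall could hardly be seen. CHX16, the brighter of the 5, was at -0.20 with hyperphyllin. Of 4 listed guard cell markers 1 was measured, FMA, a transcription factor of guard cell formation. FMA read 6.40, 6.58 and 6.88 with hyperphyllin, 6.38, 6.35 and 6.90 in amp1-13, and 7.44, 7.59 and 7.25 in control. FMA fell in both, by 0.81 ± 0.18 with hyperphyllin and by 0.88 ± 0.18 in amp1-13 (SE, limma adjusted p = 0.0089 and 0.00831). The part of guard cell number in the CHX20 values was not tested.

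Redox and sulfur metabolism held the largest fall of any symbol-bearing member. SUFE2 belongs to the SufE proteins, which activate the cysteine desulfurase of plastid iron-sulfur cluster assembly. SUFE2 had 7.46, 7.21 and 8.05 with hyperphyllin, 9.19, 9.61 and 9.34 in amp1-13, and 9.58, 9.72 and 9.81 in control. The highest hyperphyllin array was still more than a log2 unit below both other groups, and the mean was 4.37-fold below control (-2.13), against -0.32 in amp1-13. SAL2 is a relative of the SAL1 phosphatase, which degrades a by-product of sulfate use. It read 5.91, 6.62 and 6.83 with hyperphyllin, 7.97, 8.01 and 8.09 in amp1-13, and 8.44, 7.97 and 8.43 in control. SAL2 was 3.55-fold lower with hyperphyllin (-1.83), and its amp1-13 arrays lay close to control replicate 2. ATMDAR2 encodes a monodehydroascorbate reductase, which recycles ascorbate. Signals were high and the difference small, with 10.74, 10.30 and 10.50 with hyperphyllin, 10.97, 11.06 and 11.02 in amp1-13, and 11.19, 11.34 and 11.49 in control. ATMDAR2 stood in 3 separate bands, at -0.83 with hyperphyllin and -0.32 in amp1-13.

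Enzymes that modify small molecules made up a further group. UGT85A5 is a UDP-glucosyltransferase, which joins glucose to small molecules. UGT85A5 gave 6.39, 6.24 and 6.62 with hyperphyllin, 7.28, 7.58 and 7.48 in amp1-13, and 7.79, 7.92 and 7.59 in control. Hyperphyllin was 2.54-fold lower (-1.35) and amp1-13, at -0.32, lay just under the control arrays. Both neighbouring genes in the TAIR10.1 table are of the same subfamily, and neither was low: UGT85A2 was at 0.61 with hyperphyllin and 0.64 in amp1-13, and UGT85A3 at -0.01 and -0.10. UGT85A4, elsewhere on the chromosome, was at -0.49 and -0.22. CYP71B28 is a cytochrome P450, one of the heme enzymes that oxidise small molecules. It read 6.14, 6.39 and 6.54 with hyperphyllin, 7.0, 7.04 and 7.10 in amp1-13, and 7.41, 7.31 and 7.28 in control. The difference was -0.98 with hyperphyllin and -0.29 in amp1-13, with narrow, separate groups. Of 19 CYP71B genes measured it was the only one at most -0.8 with hyperphyllin, and 16 lay within 0.4 of control. Among those 16, CYP71B16, CYP71B21, CYP71B25, CYP71B27, CYP71B30P, CYP71B31, CYP71B36 and CYP71B38 had hyperphyllin and control means under 4.39, where a fall could hardly be seen. The neighbour of CYP71B28, CYP71B29, was at -0.18 with hyperphyllin and 0.21 in amp1-13.

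FMO is a flavin monooxygenase gene at AT1G12200. It had 8.77, 8.99 and 9.38 with hyperphyllin, 9.62, 9.83 and 9.73 in amp1-13, and 9.75, 10.21 and 10.14 in control, differences of -0.99 and -0.30. AAE16, of the acyl-activating enzyme family, was among the members highest in amp1-13. AAE16 read 6.84, 6.89 and 7.27 with hyperphyllin, 8.04, 8.49 and 8.56 in amp1-13, and 7.87, 8.28 and 7.88 in control. Hyperphyllin was 2.01-fold below control (-1.01) and amp1-13 was above it (0.36), although replicate 2 of the control exceeded the lowest amp1-13 array. AAE15, the other gene of that name measured, was at 0.12 with hyperphyllin and 0.50 in amp1-13.

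The last symbol-bearing members concern the cell wall and defence. TBL38 belongs to the TRICHOME BIREFRINGENCE-LIKE family, members of which add acetyl groups to wall polysaccharides. TBL38 gave 7.94, 8.30 and 8.11 with hyperphyllin, 8.87, 9.28 and 9.25 in amp1-13, and 8.97, 8.68 and 9.32 in control. It was at -0.88 with hyperphyllin and 0.14 in amp1-13, and no other of the 22 TBL genes measured was at most -0.8. TBL43, TBL20 and TBL15 had means under 4.39 in every group, where a fall could hardly be seen. PR-1-LIKE (AT2G19990) is related to the secreted defence protein PR-1. It had 7.74, 8.30 and 8.51 with hyperphyllin, 9.70, 9.37 and 9.37 in amp1-13, and 9.67, 9.61 and 9.86 in control. The fall was 2.89-fold (-1.53), with amp1-13 at -0.23.

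The largest fall of all belonged to AT2G25625, which the reference names by locus only. It read 5.13, 5.01 and 5.57 with hyperphyllin, 7.06, 7.67 and 7.43 in amp1-13, and 7.86, 7.62 and 7.55 in control. Hyperphyllin was 5.41-fold lower (-2.44) with a wide gap to both other groups, and amp1-13 was at -0.29. AT1G04770 had 8.14, 7.41 and 8.31 with hyperphyllin, 8.92, 9.72 and 9.85 in amp1-13, and 9.75, 9.85 and 9.68 in control, a difference of -1.81 with hyperphyllin. Replicate 1 of amp1-13 was its lowest array and replicates 2 and 3 were at the control level. AT5G66815 was at 4.06, 4.08 and 4.18 with hyperphyllin, 5.63, 5.71 and 5.55 in amp1-13, and 6.15, 5.45 and 6.48 in control. Its hyperphyllin mean, like those of SWEET13, AT1G52800, AT5G37970, AT3G55890 and AT5G48940, was below that 25th percentile, so the size of these 6 differences is uncertain. AT5G18130 (-1.68), AT1G02470 (-1.65), AT1G06830 (-1.65), AT5G45650 (-1.60), AT1G72890 (-1.55) and AT5G25280 (-1.53) followed, with amp1-13 between -0.38 and -0.01.

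Other members among the 30 with the largest fall were less deep and differed in amp1-13. AT3G43110 gave 5.81, 6.49 and 6.78 with hyperphyllin, 8.16, 7.92 and 7.75 in amp1-13, and 7.71, 7.70 and 7.83 in control. The control arrays agreed within 0.2, the amp1-13 mean was above them by 0.20, and hyperphyllin was at -1.39. AT1G08310 was at 7.43, 8.10 and 8.25 with hyperphyllin, 9.32, 9.50 and 9.46 in amp1-13, and 9.25, 8.99 and 9.40 in control. It too was low with hyperphyllin (-1.29) and slightly above the control mean in amp1-13 (0.21). AT5G44580, a bright member, read 10.80, 10.41 and 10.70 with hyperphyllin, 11.997, 12.15 and 12.06 in amp1-13, and 12.31, 11.32 and 12.17 in control. Without the low replicate 2 its control arrays would lie just above amp1-13, and the differences as measured were -1.30 with hyperphyllin and 0.14 in amp1-13. The rest of these 30 are AT1G52800 (-1.36), AT3G52070 (-1.36), AT1G67600 (-1.35), AT1G66890 (-1.34), AT5G07580 (-1.32), AT4G19980 (-1.30) and AT3G44450 (-1.27). In those 7, amp1-13 ran between -0.34 and 0.06.

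The members were spread over all chromosomes, with 30 on chromosome 1, 14 on chromosome 2, 18 on chromosome 3, 10 on chromosome 4 and 31 on chromosome 5. In 3 places, a pair of members lay next to each other or with a single gene between them in the TAIR10.1 gene table. SUFE2 adjoins AT1G67820, which read 5.59, 5.37 and 5.29 with hyperphyllin, 5.88, 6.17 and 6.20 in amp1-13, and 6.68, 6.15 and 6.52 in control. AT1G67820 was at -1.03 with hyperphyllin, and AT1G67800, on the other side of SUFE2, was at -0.03. PR-1-LIKE and AT2G19970 (-1.14) flank AT2G19980, which was at -0.41 with hyperphyllin and -0.31 in amp1-13.

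The third pair, AT5G37990 and AT5G37970, flanks AT5G37980. AT5G37990 gave 8.80, 8.66 and 8.39 with hyperphyllin, 10.23, 9.65 and 9.81 in amp1-13, and 10.06, 10.08 and 10.47 in control (-1.58 with hyperphyllin). AT5G37970 was much dimmer, with 3.88, 3.88 and 4.08 with hyperphyllin, 4.86, 4.76 and 5.13 in amp1-13, and 4.85, 5.58 and 5.41 in control (-1.33). The gene between them read 5.59, 6.11 and 6.0 with hyperphyllin, 6.55, 6.58 and 6.45 in amp1-13, and 7.03, 6.93 and 7.14 in control. All 3 genes of that stretch were thus low with hyperphyllin, and AT5G37980 was no member because amp1-13 was also low (-0.51). Whether their probe sets share sequence was not tested. Both sides of each member were counted, which gave 98 adjacent positions with a measured gene. Of these, 2 held a member, where 0.771% of the nuclear probe sets are members. They are SUFE2 and AT1G67820, a single pair counted from each side. The only other probe set of a member gene belongs to AT3G15240. It read 3.87, 4.1 and 3.94 with hyperphyllin, 4.25, 4.37 and 4.28 in amp1-13, and 3.96, 4.97 and 4.86 in control, at -0.62 with hyperphyllin, whereas the member probe set was at -1.04.

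None of the members was on the 20 lists of genes by locus, of which 45 of 322 genes were measured by a nuclear probe set. Of 27 gene families, matched by words of the reference's symbols and synonyms, 16 had a measured gene and 2 held a member. This matching misses genes whose names lack the words searched, among them PR-1-LIKE, SWEET13 and CHX20. It also takes in genes of other kinds: PAP20, D2HGDH and SPT were matched as AP2/ERF factors, and AQI was the only gene matched as an aquaporin. The 16 is therefore a count of word matches, not of true families. Among 24 cytochromes P450, 4 were lower with hyperphyllin than control and 1 was higher (limma, adjusted p under 0.05), where 15.6% and 13.3% of all probe sets were. The 4 include the member CYP71B28. In amp1-13, 3 P450 genes were lower and 4 higher, where 12.5% and 10.1% of all were. CYP718 fell by 0.80 ± 0.16 with hyperphyllin (SE, limma adjusted p = 0.00624), with amp1-13 at -0.41 (adjusted p = 0.0965). CYP71B34 fell by 0.66 ± 0.13 (adjusted p = 0.00482), with amp1-13 at -0.30. CYP71B23 fell by 0.59 ± 0.19 (adjusted p = 0.0391), and limma called it no longer when hyperphyllin replicate 1, 2 or 3, control replicate 1 or 3 or amp1-13 replicate 2 was left out (adjusted p 0.058 to 0.115). The P450 calls with hyperphyllin were 3 lower and 0 higher without hyperphyllin replicate 2. In amp1-13 their total of 7 fell to between 1 and 4 without control replicate 1 or 3, hyperphyllin replicate 2, or amp1-13 replicate 1 or 2. The amp1-13 calls were also fewer with the replicate number as a block (2 lower and 1 higher). With only the 2 groups compared they were 1 lower and 1 higher.

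Among 45 UDP-glycosyltransferases, 7 were lower with hyperphyllin and 11 higher, the member UGT85A5 being 1 of the 7, where 15.6% and 13.3% of all probe sets were called. In amp1-13, 3 were lower and 9 higher, where 12.5% and 10.1% of all were, and without control replicate 1 the family had 6 lower and 7 higher. UGT73B1 rose by 1.57 ± 0.17 with hyperphyllin (SE, limma adjusted p = 0.000344) and by 1.74 ± 0.17 in amp1-13 (adjusted p = 0.000384). UGT72B3 fell by 1.22 ± 0.13 with hyperphyllin (adjusted p = 0.000353) and by 1.2 ± 0.13 in amp1-13 (adjusted p = 0.000611). UGT71C1 fell by 0.77 ± 0.24 with hyperphyllin (adjusted p = 0.0365), a call that limma lost without hyperphyllin replicate 1, 2 or 3, control replicate 2 or 3 or amp1-13 replicate 2 (adjusted p 0.0569 to 0.132), and with the replicate number as a block (0.0557). Without hyperphyllin replicate 1 or 2 or control replicate 3, the hyperphyllin calls of the family were 4 lower and 5 higher.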

How the data were processed

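The deposited values are log2 signals of 22810 ATH1 probe sets, which the authors summarised by RMA, per the submitters' processing notes. The sources used here do not give the program or the probe set definition. The values range from 2.78 to 14.3 and were used as deposited, with no filter or further normalization. After leaving out 64 control probe sets, 22746 entered a limma 3.58.1 fit (R 4.3.3): 1 mean per group over 9 arrays, default empirical Bayes, two-sided, Benjamini-Hochberg over all probe sets, adjusted p threshold 0.05 (residual degrees of freedom 6, prior 3.45). The fit was tested on simulated data. Arrays carry no count depth, so 3 arrays per group limit the precision.

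The platform's gene table gave 13513 probe sets a single gene, 503 several and 8730 none here. Of the first, 13436 matched the RefSeq gene table (TAIR10.1), and 13367 of these name a nuclear gene (13217 genes). No coordinates are given, because no build is named for the values, and no sequence table was used here. In lists, a gene was represented by its brightest probe set.

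Members and lists were chosen with earlier results of these data known. The text names the 30 members with the largest fall, those nearest each limit, members in a listed family, and up to 3 passing genes of each family that holds a member. The other symbol-bearing members, relatives, neighbours and exceptions were named after their values were seen. Alternatives were other scalings, a 25th percentile filter, array weights, a robust prior with a trend, the replicate number as a block, only the groups compared, leaving out each array, other limits and medians.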

Additional observations from a re-analysis of the deposited data

How the results depend on the processing

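The number of members was 103 as reported, 103 after a further quantile normalization (97 shared), 115 with array medians centred (100 shared), 103 with the 25th percentile filter and 100 with group medians (78 shared). It was 52 at a hyperphyllin limit of -1, 209 at -0.6, 30 with an amp1-13 window of 0.2 and 185 with 0.6, and 83 to 129 when 1 array was left out. Each of the 42 members checked singly lay between -2.60 and -0.63, with no value moved over 1.5-fold. The separation of arrays in the rule fixes their direction when an array is left out or medians are taken, so nothing is read from the sign. Over all probe sets limma called 6567 for hyperphyllin against control, 5124 for amp1-13 against control and 1439 for hyperphyllin against amp1-13. With array weights these were 10485, 9363 and 3423. Leaving out 1 array gave 3881 to 8869, 2545 to 7942 and 506 to 2227, the highest for hyperphyllin against control being without control replicate 2. The replicate number as a block gave 6275, 4869 and 1338. Deviations of same-numbered arrays correlated at -0.20 to 0.23, and those of differently numbered arrays at -0.25 to 0.36. With so few arrays these values cannot tell whether same-numbered arrays share a batch. UGT73B1, UGT72B3, CYP718 and CYP71B34 kept their calls under every alternative run. The cause of these shifts was not tested.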

Other observations

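Outside the probe sets that name a single nuclear gene, 9379 probe sets name several genes, none here, an organelle gene or a gene not matched to the reference. Of these, 88 met the same limits on means and separation of arrays.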
